A study of Mus musculus with 6 samples.

Results

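Macrophages of the mouse sciatic nerve 1 day after birth (P1) were described from single-cell RNA libraries of the nerve. They were chosen by their own counts. A barcode with 500 to 5000 detected genes was taken when it held at least 5 unique molecular identifiers (UMIs, 1 per captured RNA molecule) of C1qa and C1qb together, at least 1 UMI of Ptprc, Cd68 or Csf1r, under 10 UMIs of Col1a2, and none of Sox10 or Pecam1. Col1a2, Sox10 and Pecam1 mark fibroblasts, Schwann cells and endothelial cells. The rule gave 734 of 11735 cells at P1 (24337 cells in the series), with 233, 268 and 233 cells in P1 replicates 1, 2 and 3. The same rule gave 866 of 12602 cells at postnatal day 60 (P60), with 223, 274 and 369 cells per replicate.

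All animals carried the P0Cre, ReYFP and βAct-DsRed alleles on a C57bl/6J background, so that every cell was red and cells in which the Schwann lineage promoter P0 had driven Cre were yellow as well. Each library was an independent run on nerves pooled from male and female mice, dissociated with enzymes at 37 °C and sorted for DsRed. At P1 a part of the DsRed and eYFP double-positive cells was sorted away, which sets the share of Schwann cells at that age. The mice were not perfused, so blood stayed in the vessels. No batch or date is labelled, and a batch effect would therefore look the same as an effect of age.

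Macrophages are tissue phagocytes that clear dying cells, debris and old red blood cells, and present peptides to T cells when they carry MHC class II. C1q, the first component of the classical complement pathway, is made largely by tissue macrophages, from the neighbouring genes C1qa (chr4:136895917-136898803), C1qc (chr4:136889804-136893065) and C1qb (chr4:136880129-136886187, all GRCm38, minus strand). CSF1R is the receptor for CSF1 and IL-34, on which macrophages depend for survival. In many peripheral tissues, macrophages along vessels are known for LYVE1, a hyaluronan receptor, and macrophages close to nerve fibres for CX3CR1, the fractalkine receptor.

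The libraries held 26685231 to 30334608 UMIs at P1 and 20203440 to 26480736 at P60. Macrophages had a median of 7407, 6503 and 7788 UMIs per cell in P1 replicates 1, 2 and 3 and of 3806, 3409 and 3718 at P60, so a P1 macrophage was measured more deeply. Any 2 libraries shared 13 to 32 barcodes, of which at most 1 was a gated cell. P60 replicate 3 differed most from its group, and the results that turn on it are given without it too.

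The counts that chose the cells are a description. The median of C1qa and C1qb together was 61, 57 and 61 UMIs per macrophage in the P1 libraries and 0 in the other cells. At P1, 22 cells with 1 to 4 C1q UMIs stayed just outside and 15 with 5 to 9 lay just inside, with a median of 22 and 14 UMIs over 5 other macrophage genes. The remaining 719 cells had 10 or more. Csf1r stood at 854, 894 and 807 counts per 1000000 UMIs of the gated cells (CPM) in P1 replicates 1, 2 and 3, and Cd68, a lysosomal protein, at 689, 714 and 722 CPM.

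Genes that the rule did not use were read to check the label. None of the 15 further macrophage genes listed lay under 10 CPM at P1. C1qc, the third C1q chain, had 3222, 3462 and 3149 CPM, 57.7 times the level in all other P1 cells with 10 CPM added to both. The next ratios were 48.6 for Pf4, a chemokine that resident macrophages make, 40.9 and 34.1 for Fcer1g and Tyrobp, signalling adaptors of Fc receptors and TREM2, 39.7 for the lysosomal protease gene Ctss and 34.1 for the Fc receptor-like gene Fcrls. They were 33.3 for the lipid receptor gene Trem2, 33.1 and 32.6 for the chemokine genes Ccl4 and Ccl12, 32.4 for lysozyme (Lyz2), 31.98 for Fcgr3 and 31.9 for Ms4a7. The cells were chosen by C1q, so these ratios carry no test.

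Set beside the 121 other P1 cells with a Ptprc UMI and under 5 C1q UMIs, the same genes fell into groups. Ms4a7, Fcrls and Ccl12 stood at a mean of 12.01, 14.7 and 4.46 CPM in those cells, against 573, 614 and 533 in macrophages. Lyz2 and Tyrobp stood at 2862 and 1730.1 CPM in them, against 3354 and 2630.2. The second pair was thus shared with these cells. They were not screened for Col1a2, Sox10 or Pecam1, and Dlk1 stood at 1000 ± 269 CPM in them (SD, n = 3). It stood at 80.1 CPM in macrophages and at 6525 CPM in the Col1a2-high cells defined below. The part of other cell types in these values was not tested.

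Markers of other cells were read from the same sums. Of the T and NK cell markers 6 of 8 had no UMI at P1, Cd3e among them, and Ly6g (neutrophils) and Sall1 (microglia) had none at P1 or P60. Other leukocyte lists were detected and higher at P60: the monocyte markers summed to 152 to 202 CPM and 429 to 686 CPM, the B cell markers to 162 to 183 CPM and 403 to 537 CPM, the dendritic cell markers to 18.3 to 25.3 CPM and 90.9 to 119 CPM and the T and NK cell markers to 1.02 to 2.696 CPM and 23.5 to 64.5 CPM. Mast cell and neutrophil markers summed to 4.57 to 6.47 CPM and 17.3 to 28.6 CPM at P1 and 0 to 3.57 CPM and 11.4 to 20.7 CPM at P60. The part of these cells in the age change was not tested. The 10 fibroblast markers summed to 529 to 719 CPM at P1 and 1242 to 2639.8 CPM at P60, which is 1.61% to 2.19% and 3.16% to 6.29% of their sum in Col1a2-high cells (10 or more Col1a2 UMIs and no sign of the other types). The Schwann cell markers summed to 419.8 to 514 CPM and 99.1 to 283 CPM, the endothelial ones to 33.4 to 42.7 CPM and 89.9 to 165 CPM, and the mural ones to 17.3 to 24.9 CPM and 107 to 234 CPM.

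Red cell genes summed to 111, 11.9 and 786 CPM in P1 replicates 1, 2 and 3. The part of carried RNA in the results was not tested beyond leaving out cells with 2 or more UMIs of defining genes of other cells, which gave 3639 called genes with age in place of 3697.

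The share of macrophages did not differ detectably between the ages. They made up 8.65%, 8.05% and 7.36% of cells without a Sox10 UMI in P1 replicates 1, 2 and 3 and 6.64%, 6.13% and 8.301% at P60, and the ranges overlapped. The means were 8.02% ± 0.643 and 7.02% ± 1.14 (SD, n = 3; exact permutation test over libraries, two-sided, p = 0.3, where 0.1 is the smallest that this design can give). Cells with Sox10 were left out because the P1 sort set their number. Among all cells the P60 mean was the higher one, by 0.569 percentage points.

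Dividing macrophages were more frequent at P1. After each cell was thinned to 1500 UMIs, Mki67 or Top2a, both made in cycling cells, had a UMI in 13.7%, 11.9% and 13.7% of macrophages in P1 replicates 1, 2 and 3 and in 2.24%, 1.82% and 3.57% at P60. The groups did not overlap, and the mean differed by −10.6 percentage points (exact permutation test over libraries, two-sided, p = 0.1). Without thinning the shares were 32.2%, 23.9% and 31.8% and 5.38%, 2.92% and 4.88%. Col1a2-high cells, themselves a dividing population at P1 with a median of 6519 to 7385 UMIs, had 10.2%, 12.2% and 10.3% and 0.744%, 0.674% and 0.4202%, so the P1 ranges of both cell groups overlapped, and carried RNA of dividing neighbours was not tested.

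**Figure D1:**
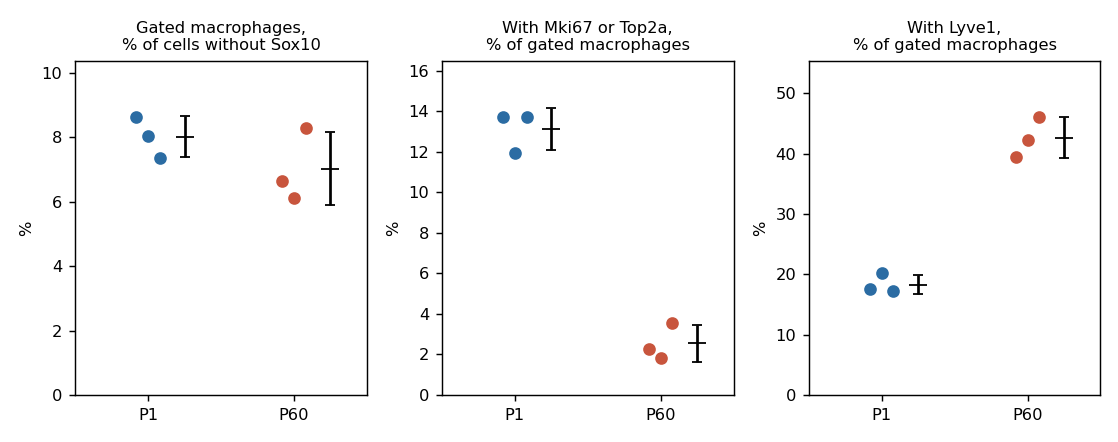
Shares per library (points) with the mean and SD of 3 libraries for P1 and P60. Left, gated macrophages as a percentage of cells without a Sox10 UMI; middle and right, percentage of gated macrophages with a UMI of Mki67 or Top2a, and of Lyve1, after thinning to 1500 UMIs. The ages overlap at the left and lie apart in the other panels.

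The change with age was tested gene by gene on UMIs summed per library (edgeR's quasi-likelihood test with Benjamini-Hochberg adjustment over 8914 genes, called at an adjusted p under 0.05). Of these genes 1901 (21.3%) were higher and 1796 (20.1%) lower at P60, the median log2 change was 0.0065, and the CPM of the ages did not overlap in 4725 (53.0%). A large part of all genes was thus called, and the counts of each list are to be read against these shares. A sum can change because each cell changed or because the mix of macrophages changed, and these cannot be told apart in it.

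All 30 cell cycle genes listed were lower at P60, with a median log2 change of −2.29, and in all 30 the ages did not overlap. Cdk1, the kinase that drives mitosis, had 127, 119.7 and 175 CPM at P1 and 13.3, 17.1 and 12.1 at P60 (log2 change −3.26, adjusted p = 3.31e-07). Rrm2, a subunit of the enzyme that makes DNA precursors, had 66.2, 72.2 and 66.1 against 5.11, 1.898 and 1.43 CPM, a change of −4.60 and of −5.28 without P60 replicate 1. Tk1 and Pclaf, both used in DNA synthesis, fell by 4.26 and 3.88 on the log2 scale. The smallest fall was that of Pcna, the sliding clamp of DNA replication, which had 96.6, 93.3 and 107 against 44.96, 42.7 and 49.9 CPM.

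Dividing cells were found in both subsets that Lyve1 defines, described further on. Mki67 or Top2a had a UMI in 14.6%, 12.96% and 17.5% of Lyve1-positive P1 macrophages and in 13.5%, 11.7% and 12.95% of Lyve1-negative ones. The first 3 values rest on 6, 7 and 7 cells. When dividing cells by this measure were left out, an alternative chosen after seeing the data, 3378 genes were called with age, of which 3273 were among the 3697. The cells kept are called noncycling below, but the measure misses cells. A UMI of either gene was in 13.1% of P1 macrophages after thinning and in 29.3% before. In the cells kept Pclaf, Tk1 and Rrm2 still changed by −4.75, −4.12 and −3.95.

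Promoters of cell cycle genes are known for CCAAT boxes and for the CHR element. RefSeq promoters (GRCm38.p6, 250 bases before to 50 after the start) were at hand for 25 of the 30 genes. The letters CCAAT, searched on both strands, were in 22 of the 25 and in 37.4% of all 32851 promoters. TTTGAA was in 12 and in 17.9%, and both were in 12 and in 6.95%. Cdk1 (chr10:69352863-69353162, minus strand) and Ccnb2 (chr9:70421505-70421804, minus strand), which encodes cyclin B2, are shown because both fell and hold both motifs more than once, with matches on either strand in capitals. A match of letters describes these windows and is no measured site.
Cdk1: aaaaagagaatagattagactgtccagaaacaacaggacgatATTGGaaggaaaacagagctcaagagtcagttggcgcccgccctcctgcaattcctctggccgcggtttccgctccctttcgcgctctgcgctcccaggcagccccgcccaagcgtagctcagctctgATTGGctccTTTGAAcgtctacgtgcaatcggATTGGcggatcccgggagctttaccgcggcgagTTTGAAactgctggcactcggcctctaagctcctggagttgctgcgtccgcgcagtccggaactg
Ccnb2: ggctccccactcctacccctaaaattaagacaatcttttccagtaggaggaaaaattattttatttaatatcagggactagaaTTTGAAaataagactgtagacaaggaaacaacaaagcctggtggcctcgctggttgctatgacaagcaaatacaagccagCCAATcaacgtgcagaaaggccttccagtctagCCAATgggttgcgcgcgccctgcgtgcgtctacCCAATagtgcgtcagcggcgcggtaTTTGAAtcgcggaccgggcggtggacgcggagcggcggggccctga

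MHC class II had the highest median change of all lists with a tested member, 6.36 on the log2 scale, with 8 of 8 tested members higher at P60. It presents peptides of engulfed proteins to helper T cells. H2-Aa (chr17:34282744-34287823, minus strand), the α chain of the I-A molecule, stood at 56.96, 74.9 and 32.02 CPM in P1 replicates 1, 2 and 3 and at 7700.1, 6319.5 and 6394 at P60 (log2 change 7.02, adjusted p = 1.31e-09). H2-Ab1 (chr17:34257689-34269419), its β chain, went from 56.96, 81.4 and 36.1 to 7635, 6699 and 6259 CPM. Cd74, the invariant chain that guards the peptide groove, went from 254, 316 and 174 to 25141, 21840 and 18730 CPM. In each gene P1 replicate 3 was the lowest library.

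The chains moved together and the loading factors less. H2-Eb1, the I-E β chain, which has a gene model on the opposite strand, changed by 7.04. H2-DMa and H2-DMb1, which load peptides in the endosome, changed by 2.76 and 3.89, and H2-DMb2, a near copy of H2-DMb1 whose reads may be split with it, by 1.90. Ciita, the transactivator of the class, had 1 and 64 UMIs (ratio 106, 18.3 to 4234) at P1 and P60, the interval being a 95% one that covers counting error only, as do all intervals and floors here. H2-Oa and H2-Ob were too low to be tested.

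Within P1, class II sat in few cells. H2-Aa, H2-Ab1 and H2-Eb1 together had 864 UMIs. 687 of 734 macrophages (93.6%) had none, and 10 cells with 10 or more (4, 4 and 2 per library) held 93.4% of the UMIs. Of these 10 cells, 10 had a UMI of Ccr2, the receptor by which monocytes leave the marrow. A UMI of Cx3cr1 was in 6, of Tmem119 in 5 and of Mrc1 in 2. Lyve1, Ms4a7 and the dendritic cell markers Flt3 and Cd209a were in 0, and the median C1q count was 22.5. Of the other 724, 131 had Ccr2, 562 Cx3cr1, 256 Tmem119, 576 Mrc1, 182 Lyve1, 624 Ms4a7, 9 Flt3 and 1 Cd209a, with a median C1q count of 60. The 10 cells were picked by their class II counts after these were seen, and no test was run.

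At P60 class II was found in most macrophages. Of 866 cells 619 had 10 or more UMIs (78.9%, 68.98% and 68.8% per library) and 87 had none. After thinning, a UMI was found in 85.98% ± 4.402 of P60 macrophages and in 10.7% ± 2.17 of P60 Col1a2-high cells, at median depths of 3409 to 3806 and 4790 to 6286 UMIs before thinning. At P1 the shares were 3.37% ± 0.767 and 0.713% ± 0.181.

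**Figure D2:**
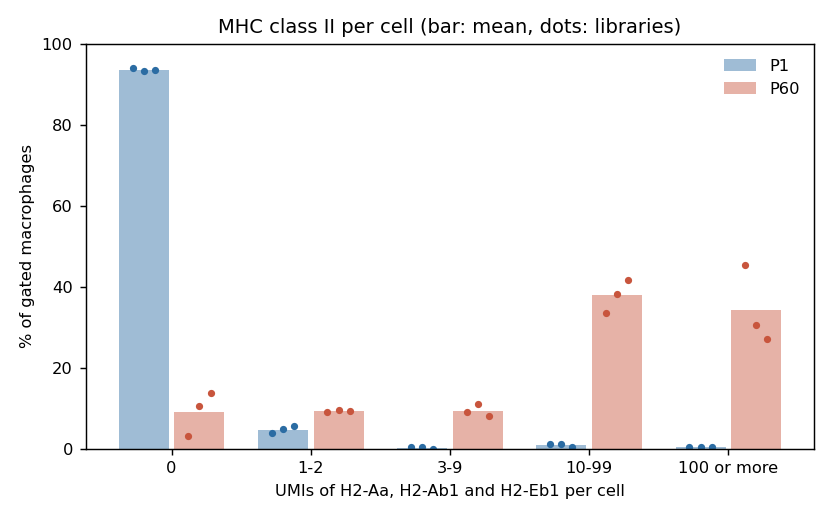
Percentage of gated macrophages (vertical axis) by the number of UMIs of H2-Aa, H2-Ab1 and H2-Eb1 in the cell (horizontal axis) at P1 and P60; bars are means and points the 3 libraries of each age. At P1 93.6% of all macrophages had none, and at P60 71.5% had 10 or more.

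Class II promoters are known for a conserved module whose Y box holds the letters TGATTGG. Of 7 list members with a RefSeq promoter 6 held these letters on either strand (H2-Aa, H2-DMb1, H2-DMb2, H2-Eb1, H2-Oa and H2-Ob), against 7.82% of all promoters. The letters contain ATTGG, which is CCAAT on the other strand. Of the genes that rose, H2-Aa (chr17:34287774-34288073, minus strand), H2-Eb1 (chr17:34305617-34305916, plus strand) and H2-DMb1 (chr17:34152941-34153240, plus strand) are shown because they share the motif, which is in capitals. H2-Oa and H2-Ob hold it too and were hardly detected.
H2-Aa: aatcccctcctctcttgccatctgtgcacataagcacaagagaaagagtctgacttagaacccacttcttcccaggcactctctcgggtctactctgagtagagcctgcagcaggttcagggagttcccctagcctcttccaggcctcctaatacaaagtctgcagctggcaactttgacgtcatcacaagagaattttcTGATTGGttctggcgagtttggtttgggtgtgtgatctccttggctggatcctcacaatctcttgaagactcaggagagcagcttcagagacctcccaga
H2-Eb1: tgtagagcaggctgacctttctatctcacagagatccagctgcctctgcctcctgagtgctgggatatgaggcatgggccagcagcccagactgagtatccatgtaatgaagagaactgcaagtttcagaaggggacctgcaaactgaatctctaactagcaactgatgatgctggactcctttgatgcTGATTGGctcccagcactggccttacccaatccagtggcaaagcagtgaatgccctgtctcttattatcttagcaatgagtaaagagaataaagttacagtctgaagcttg
H2-DMb1: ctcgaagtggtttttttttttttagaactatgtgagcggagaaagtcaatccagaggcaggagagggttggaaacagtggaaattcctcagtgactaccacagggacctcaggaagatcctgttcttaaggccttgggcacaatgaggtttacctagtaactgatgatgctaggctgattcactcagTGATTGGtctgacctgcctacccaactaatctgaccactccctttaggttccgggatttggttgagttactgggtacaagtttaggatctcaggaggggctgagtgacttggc

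Genes of perivascular and resident macrophages were higher at P60 in 18 of 20, lower in 0, with a median change of 1.90. How this compares with Col1a2-high cells is given further on. Many encode receptors for sugars, haemoglobin and folate. Mrc1, the mannose receptor, had 450.2, 472 and 422 CPM at P1 and 779, 788 and 1046 at P60 (log2 change 1.02, adjusted p = 7.27e-05). Folr2, a folate receptor, had 226, 341 and 306 against 1187, 1207 and 921 CPM, and Cd163, the haemoglobin scavenger receptor, 87.3, 52.8 and 46.8 against 459.8, 463 and 881 CPM. In each of these genes the lowest P60 library was above the highest P1 library.

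Other members rose further. Mgl2, a galactose-binding lectin, went from 33.6, 42.1 and 36.6 to 1414, 1176 and 1172 CPM (log2 change 5.12, adjusted p = 2.87e-10), and its UMI share after thinning from 3.87% ± 1.56 to 71.6% ± 2.88 of cells. Cbr2, a carbonyl reductase, rose by 3.23 and the lectin gene Clec10a by 2.34. Timd4, a phosphatidylserine receptor of long-lived resident macrophages, went from 16.8, 33.97 and 23.4 to 78.7, 98.7 and 77.02 CPM. Pf4 (4650.4, 5079 and 4980.1 against 4175, 4508 and 4325 CPM) and the clearance receptor gene Stab1 (287, 264 and 268 against 266, 234 and 327 CPM) did not pass the test.

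Several genes were undetected at P1. Retnla (chr16:48842551-48844461), a secreted protein of macrophages under type 2 signals, had no UMI in any P1 macrophage and 21673, 21835 and 13330 CPM at P60, at least 34595-fold higher against a floor of 3 counts over the P1 libraries (0.529 CPM). At P60 it had a UMI in 55.4% ± 7.104 of macrophages after thinning and in 13.6% ± 6.16 of Col1a2-high cells, where it stood at 104 CPM. Cd209d and Cd209g, lectins of the DC-SIGN family on chromosome 8, also had no UMI at P1 and stood at 261, 373 and 300.2 and at 259, 301 and 184 CPM at P60, at least 588-fold and at least 455-fold higher. Mucl1 had none either and 149, 43.6 and 44.2 CPM, at least 139.7-fold higher, and at least 83.05-fold without P60 replicate 1.

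Others had 1 or 2 UMIs over all P1 macrophages. Cd209b had 1 and 491 UMIs (ratio 810, 145 to 32056), the secreted phospholipase gene Pla2g2d 1 and 398 UMIs (ratio 657, 117 to 25997), the ribonuclease gene Ear2 1 and 371 UMIs (ratio 612, 109 to 24237) and Cd209a 2 and 267 UMIs (ratio 220.2, 60.4 to 1828) at P1 and P60. Without P1 replicate 3 no P1 UMI of Cd209b or Ear2 was left, without P1 replicate 2 none of Pla2g2d and without P1 replicate 1 none of Cd209a. Lyz1 had 2.17, 3.77 and 4.57 against 726, 715 and 674 CPM and Mmp9, a matrix protease, 1.63, 1.08 and 1.02 against 129, 146 and 204 CPM. Lyz2, the main macrophage lysozyme, rose by 2.20 from a mean of 3354 CPM. Reads of the Cd209 genes, of Lyz1 and Lyz2, and of Ear2 may be split between near-identical copies, so their single values are uncertain.

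The strongest falls were in another set of genes. Dlk1, a regulator of growth in fetal tissue, went from 69.4, 74.4 and 96.6 to 2.04, 0.949 and 2.14 CPM, and stood at 6525 CPM in P1 Col1a2-high cells, and the part of their RNA in this value was not tested. Rapsn, a gene known from the neuromuscular synapse, went from 96.01, 95.4 and 71.7 to 1.02, 4.74 and 2.14 CPM (change −4.96, and −5.60 without P60 replicate 2), and stood at 0.272 CPM in P1 Col1a2-high cells. Clec4d, a C-type lectin receptor, went from 93.3, 90.04 and 127 to 0, 7.59 and 2.85 CPM (change −4.80, and −5.84 without P60 replicate 2).

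Further genes fell nearly as much. Apoc1, an apolipoprotein, had 45.6, 97.6 and 89.4 against 3.07, 3.796 and 2.85 CPM, and Dusp2, a MAP kinase phosphatase, 293, 261 and 247 against 18.4, 12.3 and 33.5 CPM. Syngr1 and the crystallin genes Crybb1 and Cryba4 changed by −3.82, −3.80 and −3.51, and without P60 replicate 3 Syngr1 and Cryba4 changed by −4.56 and −4.29. Abi3 changed by −4.87, and by −6.82 without P60 replicate 1. It overlaps Gngt2 on the other strand, and whether the counting used the strand is not given in the sources used here.

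**Figure D3:**
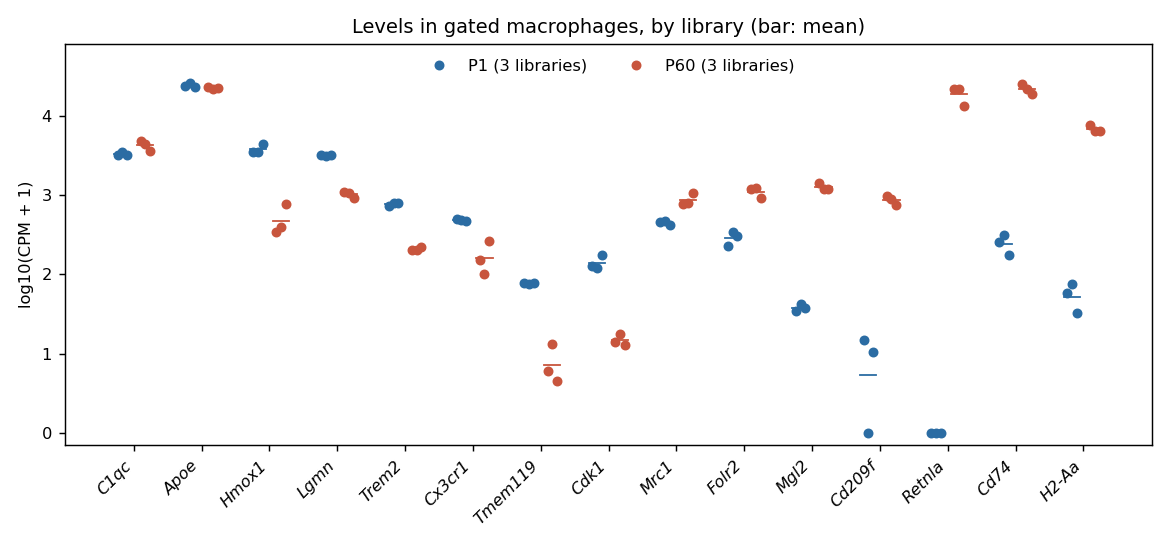
Level of 15 genes in gated macrophages, as log10(CPM + 1), in each P1 and P60 library (points), with the mean of the 3 log values (bar). Retnla is at 0 in all P1 libraries and at 13330 to 21835 CPM at P60, Cd74 and H2-Aa are higher at P60, and Hmox1, Lgmn, Trem2, Tmem119 and Cdk1 are lower.

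Genes often used for microglia, the macrophages of the brain, were lower at P60 in 9 of 12 tested and higher in 2, with a median of −0.91. Cx3cr1 had 504, 478 and 464 CPM at P1 and 149, 102 and 265 at P60, and Trem2 734, 793 and 802 against 201, 203 and 219 CPM. P2ry12, a nucleotide receptor, had 121, 135 and 112 against 69.5, 81.6 and 52.1 CPM. Siglech rose, from 5.97, 7.01 and 2.54 to 57.2, 68.3 and 81.3 CPM. Fcrls, at 599, 662 and 581 against 536, 507 and 483 CPM, did not pass the test.

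Tmem119, often taken as the microglial marker, needs more care. It had 78.1, 73.9 and 77.8 against 5.11, 12.3 and 3.57 CPM (log2 change −3.43, and −4.12 without P60 replicate 2). After thinning it had a UMI in 10.9% ± 0.506 of P1 macrophages and in 12.5% ± 1.02 of P1 Col1a2-high cells. At P60 the shares were 0.847% ± 0.276 and 8.36% ± 2.17. Col1a2-high cells thus held Tmem119 at both ages and give no level of background for it. The part of their RNA in the macrophage values was not tested. The values of macrophage subsets are given further on.

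Iron and haem genes were lower at P60 in 6 of 11 tested and higher in 3. Macrophages take up red cells, break haem down with haem oxygenase and export the iron through ferroportin. Hmox1 (chr8:75093621-75100589), haem oxygenase 1, had 3479, 3501 and 4358 CPM at P1 and 343, 399 and 764 at P60 (log2 change −2.85, adjusted p = 2.48e-06), while its UMI share after thinning was 46.3% ± 2.95 and 35.4% ± 3.92 of cells. Slc40a1, ferroportin, had 259, 299 and 311 against 31.7, 46.5 and 77.02 CPM. Ftl1 and Fth1, the ferritin chains that store iron, fell by 1.07 and 0.87.

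The members of the pathway moved apart. Slc48a1, which carries haem out of the phagolysosome, and Blvra, biliverdin reductase, fell by 1.62 and 0.85, whereas Trf (transferrin) and Cp (ceruloplasmin, which oxidises iron) rose by 0.83 and 4.67. Blvrb (516, 519 and 573 against 452, 511 and 399 CPM) and Slc11a1 (117, 122 and 169 against 109, 118 and 118 CPM) did not pass the test. Hmox1, Slc40a1, Fth1 and Ftl1 were highest in P1 replicate 3, as were the red cell genes. Hbb-bs, a haemoglobin chain, stood at 55.3, 4.31 and 429.9 CPM at P1, and its change of −4.23 was −1.79 without P1 replicate 3 (edgeR adjusted p = 0.154), −5.51 without P60 replicate 2 and −3.55 without P60 replicate 3. The part of engulfed or carried red cells was not tested.

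Lysosomal genes were lower at P60 in 12 of 21 tested and higher in 4, with a median of −0.40. Lgmn, the protease legumain, had 3193, 3127 and 3147 against 1076, 1062 and 916 CPM, and Ctsd, cathepsin D, 1919.7, 2016 and 2054 against 531, 572 and 616 CPM. Cst3, the protease inhibitor cystatin C, had 2528, 2695 and 2447 against 6494, 6573 and 6230 CPM. Lgmn and Ctsd thus fell while Cst3 rose. Npc2 (1166, 1174 and 1107 against 1015, 1059.9 and 877 CPM) and Cd63 (795, 807 and 875 against 732, 826 and 663 CPM) did not pass the test.

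Complement genes outside the rule were higher at P60 in 10 of 14 tested and lower in 1. C3, the central component, went from 1.08, 0.539 and 1.52 to 52.1, 55.98 and 44.9 CPM. C4b rose by 5.57, and by 6.45 without P1 replicate 1. C3ar1, the receptor of the C3a fragment, was the member that fell (579, 559.6 and 562 against 362, 316 and 283 CPM). C5ar1, at 432, 454 and 442 against 487, 477 and 578 CPM, did not pass the test. C1qc rose by 0.44, and by 0.34 without P60 replicate 1, when it was not called (edgeR adjusted p = 0.0522).

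Phagocytic receptors and bridging molecules did not move one way: of 21 tested, 8 were higher and 7 lower at P60, with a median of 0.07. Gas6 and Pros1, which bridge dying cells to the TAM receptors, rose by 1.10 and 2.33. Fcgr2b, the inhibitory Fc receptor, had 209, 205 and 200.2 against 452, 442 and 496 CPM, and Trem2 fell by 1.84. Fcgr3 (756, 852 and 712 against 824, 785 and 575 CPM) and the receptor gene Lrp1 (105, 104 and 96.6 against 90.9, 99.6 and 119.8 CPM) did not pass the test.

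In lipid handling, of 17 tested, 5 were higher and 4 lower at P60. Apoe, the lipid carrier, was at 23303, 25543 and 23073 CPM at P1 and 22598, 21697 and 21949 at P60 and did not pass the test. Pltp, a phospholipid transfer protein, had 42.3, 53.9 and 64.03 against 950.2, 949 and 762 CPM, and Plin2, which coats lipid droplets, 449, 478 and 491 against 133, 160.4 and 195 CPM. The list thus held a strong rise and a strong fall. Fabp4, a fatty acid carrier, rose by 2.98.

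Among chemokines and cytokines, of 21 tested, 5 were higher and 8 lower at P60. Tnf, an early inflammatory cytokine, had 391, 341 and 336 CPM at P1 and 51.1, 53.1 and 77.7 at P60, and Mif 410.1, 369 and 416 against 110.3, 119.6 and 79.9 CPM. Ccl6 and Ccl9 rose by 3.18 and 1.60, with 329, 501 and 462 against 4455, 4274 and 2518 CPM for Ccl6. Il1b fell by 1.09 and Ccl4 by 0.79. Dissociation at 37 °C is known to induce chemokines and immediate early genes, and its part in these levels was not tested.

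P60 replicate 3 decided several calls. Ccl2, which attracts monocytes, had 737, 692 and 658 CPM at P1 and 366, 371 and 974 at P60 and did not pass the test. Without P60 replicate 3 its change was −0.85 in place of −0.22 and was called. The same was seen for Cxcl2 (−1.07 in place of −0.45) and Ccl12 (−0.61 in place of −0.11). Of the 16 immediate early and heat shock genes 9 were higher at P60 and 1 lower, and Jund stood at 1092, 978 and 2066 CPM in P60 replicates 1, 2 and 3.

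Interferon-response genes were higher at P60 in 8 of 13 tested and lower in 0, and MHC class I genes higher in 4 of 9 and lower in 0. Ifitm3, an antiviral membrane protein, had 380.2, 498 and 449 against 2319, 2606 and 1933 CPM. H2-K1 and H2-D1, class I heavy chains, rose by 1.04 and 0.82. B2m, their light chain (2972, 3219 and 3179 against 3082, 2966 and 3350.3 CPM), and Psmb8, of the immunoproteasome (249, 238 and 238 against 252, 256 and 187 CPM), did not pass the test.

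Of 25 transcription factors tested, 10 were higher and 3 lower at P60. Klf2 rose by 1.09. Irf4, a factor of type 2 and antigen-presenting programmes, rose by 2.92. Id2, an inhibitor of DNA binding, had 222, 245 and 259 against 73.6, 93.9 and 106 CPM. Spi1 (PU.1, the master factor of the lineage, 518, 534 and 517 against 432, 446 and 300.2 CPM) and Irf8 (219, 251 and 224 against 216, 176 and 187 CPM) did not pass the test. Without P60 replicate 2 Spi1 did, with a change of −0.47.

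Pattern recognition genes were lower at P60 in 5 of 12 tested and higher in 3. Clec4n (dectin-2) had 224, 256 and 252 against 24.5, 35.1 and 29.95 CPM and Clec7a (dectin-1) 38.5, 41.5 and 35.1 against 155, 121 and 121 CPM, in opposite directions. Of 6 chemokine receptors 3 were higher and 2 lower. Ccr2 had 95.5, 78.7 and 58.9 against 391, 343 and 263 CPM and Ccr1 270.1, 231 and 204 against 104, 84.5 and 103 CPM. Of 10 imprinted growth genes 6 were lower and 0 higher, and H19 had 54.8, 62 and 91.98 against 15.3, 5.69 and 2.14 CPM, a change of −3.23 and of −4.17 without P60 replicate 1. How the imprinted list compares with Col1a2-high cells is given further on, and the part of carried RNA in these values was not tested.

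Of 10 growth factors tested, 3 were higher and 4 lower at P60. Igf1 (245, 245 and 267 against 203, 282 and 225 CPM) did not pass the test and Tgfb1 fell by 0.43, a call that was lost without P1 replicate 1 (−0.43) or 2 (−0.45), with DESeq2 (−0.42) and with cells thinned before summing (−0.42). Csf1 and Il34, the ligands of CSF1R, stood at a mean of 1.08 and 0 CPM in P1 macrophages. Csf1 was at 21.3 ± 0.775 CPM in Col1a2-high cells and 15.04 ± 5.36 in Pecam1-positive cells, and Il34 at 25.1 ± 0.734 in Sox10-positive cells (SD, n = 3). Cx3cl1, the ligand of CX3CR1, was at 11.5 ± 1.97 CPM in Pecam1-positive cells. The ligands thus lay mainly outside macrophages, as a description with no test.

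**Figure D4:**
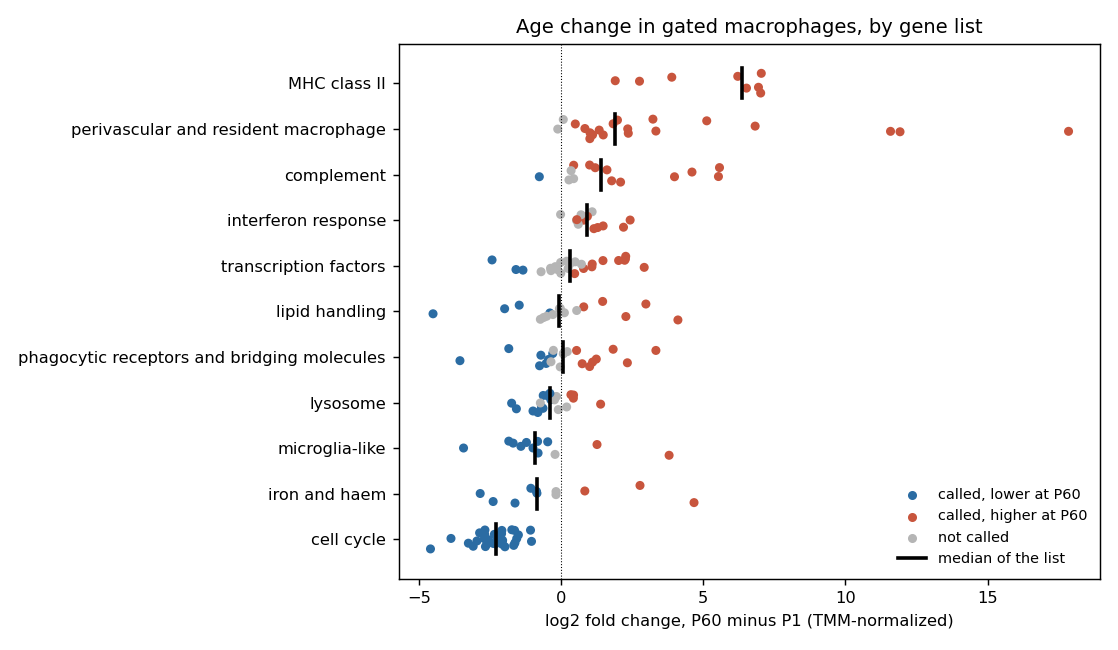
Log2 change from P1 to P60 in gated macrophages (horizontal axis) of each tested member of 11 gene lists, without the genes of the rule; red and blue points are genes called higher and lower at P60, grey points are not called and black lines are medians. The cell cycle list lies wholly below 0 (median −2.29) and MHC class II wholly above (median 6.36); fitted values of genes with almost no UMI at P1, such as Retnla, depend on the prior count and are no measure of size.

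The age change was then compared with that of Col1a2-high cells of the same libraries (at least 10 Col1a2 UMIs, no Ptprc, Sox10 or Pecam1, under 5 C1q UMIs; 6067 cells at P1 and 3602 at P60). The difference of the changes, macrophages minus Col1a2-high cells, was fitted with library as a block over 13280 genes. It was above 0 in 1953 (14.7%) and below 0 in 1577 (11.9%), with a median of 0.12, to which the values that follow are relative. With macrophages that held 2 or more UMIs of defining genes of other cells left out, 1590 were above and 2032 below, so that the share above went from 55.3% to 43.9%, and the median was −0.011.

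MHC class II was at the upper end, with 6 of 9 above 0 and 0 below. Cd74 stood at 16.3 CPM in P1 and 49.4 in P60 Col1a2-high cells, and its change in macrophages exceeded theirs by 4.77 (adjusted p = 2.08e-10). The excess was 5.26, 5.13 and 4.82 for H2-Eb1, H2-Aa and H2-Ab1. Without P1 replicate 3 it was 3.77, 4.45, 4.09 and 3.85 for Cd74, H2-Eb1, H2-Aa and H2-Ab1.

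Other genes shared this end. The excess was 5.22 for Mmp9, 4.33 for the semaphorin gene Sema4a and 4.27 for Fxyd2, a regulator of the sodium pump. For Batf3 (6.67), Ednrb (5.10) and Egr2 (4.42) the Col1a2-high cells fell, by 4.37, 4.81 and 3.50. Retnla had a fitted excess of 9.87 from P1 counts of 0. That of Cd209a, 4.91, was not called without P1 replicate 3 (3.60, edgeR adjusted p = 0.214) and was 9.13 without P1 replicate 1.

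Class I and interferon genes lay at the other end. The difference was below 0 in 9 of 9 class I genes and 10 of 14 interferon genes. Psmb8 stood at 238 to 249 CPM in P1 and 187 to 256 in P60 macrophages, and at 3.07 and 62.9 CPM in Col1a2-high cells (difference −4.42, adjusted p = 2.56e-15). Sp110 and Sp100, of nuclear bodies, went from 0.588 and 1.08 to 33.3 and 46.1 CPM in Col1a2-high cells, with differences of −5.87 and −4.56. At P1 macrophages held Sp110 at 69.97, 66.9 and 61.5 and Sp100 at 35.8, 45.3 and 45.7 CPM, so that the rise in Col1a2-high cells started far below them.

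Further genes at this end were Slfn2 (−4.86), Bhlhe41 (−5.01), Phf11b (−4.52), Gpx3 (−5.80) and Il18, a cytokine of the inflammasome (−5.99). Rapsn (−6.48), Abi3 (−5.40, and −7.41 without P60 replicate 1) and Apoc1 (−4.64) lay under 5 CPM in Col1a2-high cells at both ages. Rapsn went from 0.272 to 0.799 CPM in Col1a2-high cells, which adds to its difference.

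The fall of cell cycle genes was shared with Col1a2-high cells. The difference was above 0 in 11 of 30, where macrophages fell less, and below 0 in 1. For Cdk1 it was 1.30 (adjusted p = 0.0129), and 1.05 without P60 replicate 2, when it was not called (edgeR adjusted p = 0.106), nor was it with the top 5% of macrophages by UMIs left out (0.81, edgeR adjusted p = 0.175). For imprinted growth genes the difference was above 0 in 10 of 14 and below 0 in 0, with a median of 1.89. Dlk1 fell by 8.56 in Col1a2-high cells and by 5.40 in macrophages. Of the iron and haem genes 9 of 11 were below 0, with −2.76 for Hmox1. Of the 20 perivascular and resident macrophage genes 1 was above 0 and 9 were below, with a median of −0.67. The rise of that list was thus called as larger in macrophages for 1 gene only. Members such as Mrc1, Folr2 and Mgl2 lay near the floor in Col1a2-high cells. After thinning they had a UMI in 0.205%, 0.0966% and 0.0187% of those cells at P1 and in 0.558%, 0.528% and 0.279% at P60. In P60 macrophages the shares were 66.3%, 56.2% and 71.6%. From such low levels a difference of log2 changes cannot say whether the rise was particular to macrophages. The part of macrophage RNA carried into Col1a2-high cells was not tested.

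P1 macrophages were not uniform, and Lyve1 (chr7:110850607-110863239, minus strand) was used to split them. After thinning, a Lyve1 UMI was found in 17.6%, 20.1% and 17.2% of macrophages in P1 replicates 1, 2 and 3 and in 39.5%, 42.3% and 46.2% at P60, and the groups did not overlap (exact permutation test over libraries, two-sided, p = 0.1, n = 3). Col1a2-high cells had one in 0.308% ± 0.206 and 0.5005% ± 0.246. Lyve1 stood at 352, 416 and 373 CPM at P1 and 658, 619 and 679.6 at P60. Cells without a Lyve1 UMI include those whose Lyve1 RNA was not captured or was lost in thinning. Of the 734 P1 macrophages 182 had a Lyve1 UMI before thinning and 135 after it.

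At P1, the sums of 41, 54 and 40 Lyve1-positive cells were compared with those of 192, 214 and 193 others (edgeR, library as a block, 7081 genes). In Lyve1-positive cells 719 genes (10.2%) were higher and 675 (9.53%) lower, with a median of −0.0085. Of the perivascular list 15 of 15 were higher, with a median of 2.31; the list holds genes known to go with Lyve1. Folr2 had 882, 1049.8 and 1010.3 CPM in Lyve1-positive cells and 46.97, 126 and 136 in the others (log2 difference 3.24 ± 0.157 SE, adjusted p = 1.69e-11). Cbr2 had 182, 294 and 347 against 10.4, 29.5 and 39.1 CPM.

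Mgl2 and Clec10a differed by 3.23 and 3.06, the scavenger receptor gene Marco by 3.11, Fcna, a ficolin of the lectin pathway, by 2.99, Cd163 by 2.97 and Ednrb, the endothelin B receptor, by 2.89. Single libraries moved some: without P1 replicate 3 Marco differed by 3.76, Fcna by 3.60 and Cd163 by 3.56, and without P1 replicate 1 Fcna by 2.38. All of them were higher in the Lyve1-positive cells of each library. Of the iron and haem genes 7 of 9 were higher as well, with 1.39 for Slc40a1 and 0.81 for Hmox1.

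Lyve1-negative cells were higher in another set. Ccr2 (chr9:124101950-124113557) had no UMI in Lyve1-positive cells and 122, 103 and 73.2 CPM in the others, at least 39.7-fold higher against a floor of 3 counts over the group. H2-Aa had none against 72.5, 97.7 and 39.8 CPM, at least 27.8-fold higher, and most of these UMIs lay in the 10 class II-high cells. Tmem119 (chr5:113793729-113800516, minus strand) had 3 and 431 UMIs (ratio 39.02, 13.3 to 190) in Lyve1-positive and Lyve1-negative cells. Parvg, an adhesion protein, had 2 and 251 UMIs (ratio 34.1, 9.34 to 283) and H2-Ab1 3 and 324 UMIs (ratio 29.3, 9.95 to 143). Most H2-Ab1 UMIs lay in the same 10 cells. Its interval and the floor of H2-Aa count UMIs and do not cover the spread between so few cells. Without P1 replicate 2 no Parvg UMI was left in Lyve1-positive cells, and the fitted difference of −5.04 was −8.83, while it was −4.35 without P1 replicate 1. For Tmem119 it was −5.27, and −6.17 without P1 replicate 2. The part of carried RNA in the Tmem119 of either subset was not tested.

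Of the microglia-type genes 10 of 11 were lower in Lyve1-positive cells and 0 higher, with a median of −1.48. Cx3cr1 differed by −3.03. Rgs1, a regulator of G protein signalling, had 251, 199 and 219.6 CPM in Lyve1-negative and 7.58, 16.2 and 7.83 in Lyve1-positive cells. Bcl2a1d, an apoptosis inhibitor with near-identical copies, differed by −4.33, and Ramp1, a subunit of the CGRP receptor, by −4.31 and by −9.21 without P1 replicate 2, when no UMI was left in the positive cells.

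Of the chemokines and cytokines 7 of 19 were higher in Lyve1-positive cells and 8 lower, with a median of −0.18. Il1b differed by −3.38, Ccl4 by −2.91 and Cxcl16 by −3.16, whereas Ccl6 and Ccl9 were higher in Lyve1-positive cells, by 1.98 and 1.61. Of the immediate early and heat shock genes 13 of 16 were lower in Lyve1-positive cells and 1 higher, beside which the cytokine values are to be read. Of 30 cell cycle genes 9 were lower and 0 higher.

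**Figure D5:**
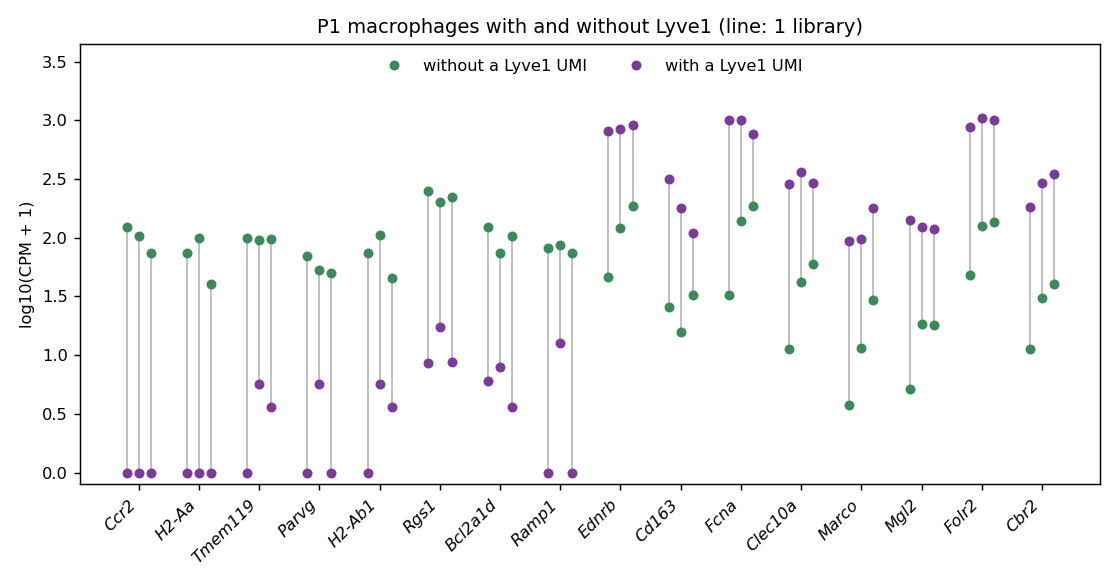
Level of 16 genes, as log10(CPM + 1), in P1 macrophages with (purple) and without (green) a Lyve1 UMI; each line joins the values of 1 library. Genes such as Folr2 and Cbr2 are higher, and genes such as Ccr2 and Tmem119 lower, in the Lyve1-positive cells of all 3 libraries.

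The split was read again in the P60 libraries, which the P1 test did not use. Of 1234 genes called at P1 and tested at P60, 1040 had the same sign and 505 were called with that sign. The splits differed between the ages in 398 of 6867 genes. For Mgl2 the P60 split was −0.20 (edgeR adjusted p = 0.148; difference of the splits −3.42), with 1155 to 1492 CPM in Lyve1-negative P60 cells. For H2-Ab1 it was −1.41 in place of −4.90, with 3236 to 4172 CPM in Lyve1-positive P60 cells.

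The age change was read within each subset as well, chosen after seeing the data. In Lyve1-positive cells 838 of 4853 genes (17.3%) were higher and 768 (15.8%) lower at P60, and in Lyve1-negative cells 1465 of 7851 (18.7%) and 1206 (15.4%). MHC class II was higher at P60 in 6 of 6 and 8 of 8 genes tested, cell cycle genes lower in 24 of 24 and 29 of 30, and iron and haem genes lower in 8 of 11 and 6 of 11. No class II gene was lower and no cell cycle gene higher in either subset. Perivascular and resident macrophage genes were higher at P60 in 15 of 20 and lower in 1 in Lyve1-positive cells (median 1.38). In Lyve1-negative cells 15 of 20 were higher and 0 lower (median 2.07). That list includes Lyve1, which made the split. The microglia-type genes were higher at P60 in 3 of 9 and lower in 1 in Lyve1-positive cells (median 0.47), but higher in 2 of 12 and lower in 9 in Lyve1-negative cells (median −0.85). Whether the list differs between the subsets was not tested.

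A different split at the 2 ages is a different age change in the subsets, and 4 of the 398 genes are given, chosen after their values were seen. The fitted log2 change of Cx3cr1 was 0.57 in Lyve1-positive and −1.25 in Lyve1-negative cells (edgeR adjusted p of the difference = 3.57e-06). That of Apoe was 0.69 and −0.14 (adjusted p = 9.68e-07), that of Ctss 0.82 and −0.39 (adjusted p = 2.02e-09), and that of Pf4 −0.81 and 0.16 (adjusted p = 5.57e-07). In the sum of all macrophages Apoe and Pf4 had not passed the test.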

How the data were processed

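Single-cell RNA libraries (10x 3′ v2) of sciatic nerve from 3 runs at P1 and 3 at P60 were analysed. The deposited matrices hold raw UMI counts per gene and barcode, which the authors made with Cell Ranger 2.0.2; the submitters' notes name GRCm38.p5, and the printed methods a human build. No normalization had been applied. The study pooled its runs and tested over cells; here cells were summed per library, the run being the replicate.

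Cells were kept at 500 to 5000 genes and gated as described in the report. The gate, gene lists and tests were chosen with earlier results of these data known. UMIs of gated cells were summed per library, filtered with filterByExpr, scaled by TMM and tested with edgeR 4.0.16 (quasi-likelihood, R 4.3.3), with library as a block within libraries, and p-values were adjusted over all genes tested. Genes of the gate stayed out of the counts. Shares were compared by exact permutation tests in Python 3.11.15 (scipy 1.17.1), after thinning each cell to 1500 UMIs (seed 1) and leaving out shallower cells, 5 of them gated cells of P60 replicate 3. No doublet caller was run. Scripts were tested on simulated data.

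Named genes were, with age and for its difference from Col1a2-high cells, the 12 highest and 12 lowest called genes whose libraries did not overlap and that reached 50 CPM, for the Lyve1 split the 8 highest and 8 lowest alike in 3 libraries, against other P1 cells the 15 largest ratios at 200 CPM or more, and from each list its defining genes, up to 4 others with the smallest adjusted p and uncalled members at 100 CPM or more. A further 27 were named after their values were seen, and some genes that the rule takes are not reported here. Alternatives covered scaling, filters, DESeq2 1.42.0, each library left out, the gate, carried RNA, cell numbers and depth. Gene positions and promoters are RefSeq's on GRCm38.p6.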

Additional observations from a re-analysis of the deposited data

Results flagged for a closer look

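In 111 genes the change with age was called in opposite directions in macrophages and in Col1a2-high cells, and the difference of the changes passed the test of the difference. The 8 with the largest difference are given. Il18 had 58, 60.4 and 54.9 CPM at P1 and 34.7, 41.8 and 37.1 at P60 in macrophages, against 1.62 ± 0.346 and 68.1 ± 5.06 CPM in Col1a2-high cells (SD, n = 3), a difference of −5.99 on the log2 scale. Gpx3, a secreted glutathione peroxidase, had 149, 188 and 185 CPM at P1 and 101, 91.1 and 54.9 at P60 in macrophages, against 44.7 ± 2.65 and 1188 ± 402 CPM in Col1a2-high cells (SD, n = 3) (−5.80). Anxa3, an annexin, fell in macrophages and rose in Col1a2-high cells (−4.08), as did Gngt2 (−3.83), which overlaps Abi3 on the other strand, the aldo-keto reductase gene Akr1b8 (−3.81), Pmepa1 (−3.73) and the haem transporter gene Slc48a1 (−3.19). BC028528 went the other way (4.0), with 45.6, 39.9 and 53.4 CPM at P1 and 78.7, 85.4 and 119.8 at P60 in macrophages, against 68.8 ± 3.37 and 8.77 ± 2.27 CPM in Col1a2-high cells (SD, n = 3).

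In 22 genes the split between Lyve1-positive and Lyve1-negative macrophages was called in opposite directions at P1 and P60, and the difference of the splits passed its test. Ly6e had 109, 114 and 86.2 CPM in Lyve1-positive and 251, 266 and 224 in Lyve1-negative cells at P1, and 1352, 1604 and 1225 and 383, 458 and 400.4 CPM at P60, a difference of the splits of 3.02. Lgals3, galectin 3, had 829, 714 and 1240 against 452, 316 and 757 CPM at P1 and 259, 242 and 133 against 362, 705 and 548 at P60 (−2.27). Lpl, lipoprotein lipase, went from higher to lower in Lyve1-positive cells (−2.26), as did Qpct (−2.90). No explanation was tested.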

How the results depend on the processing

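Each comparison was repeated under the alternatives that apply to it. With age, the 3697 called genes became 1469 when cells were thinned to 1500 UMIs before summing and 1606 in Lyve1-positive cells alone, both with fewer UMIs. DESeq2 called 2689, library size alone 3728, no filter on low counts 4600, and the data without 1 library 2883 to 3779. Calls shared with the 3697 had the same sign in all of these but Lyve1-positive cells, where 1405 of 1410 did. The difference from Col1a2-high cells gave 3530 calls, with DESeq2 2448 and without 1 library 2871 to 3193. The Lyve1 split gave 1394, with DESeq2 556, and 812 to 1261 without 1 library, fewest without P1 replicate 2. The self-test had recovered 81% of genes changed by 1 on the log2 scale in the age comparison, 62% in the Lyve1 split and 57% in the difference from Col1a2-high cells. Its simulated counts had the same spread for all genes and no library effect, and only genes above a set level were changed. Recovery in the real data may therefore be lower, and smaller changes may be missed. For DESeq2 the cause was not tested.

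Same-numbered libraries of both ages did not deviate together (correlations 0.0227, 0.0109 and −0.0412), and differently numbered ones ranged from −0.0612 to 0.0509. Each deviation was taken from the mean of 3 libraries, so these values cannot tell whether the numbers pair the libraries. With a replicate block 3522 genes were called with age. With all cells as the denominator the share of macrophages differed by 0.569 percentage points in place of −0.994 (exact permutation p = 0.5), the sort having set the cell number. Without 1 library it ranged from −1.63 to −0.546, and the difference in dividing cells from −11.2 to −10.2.

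Of 3781 repeats for named genes, 3648 kept direction and call, 25 lost and 55 gained the call, and 53 turned the direction, none of a gene called in the first place. In the log2 change with age these were, with cells thinned to 1500 UMIs Fcer1g 0.0651, Pf4 0.2298, Psmb8 0.0583, Fcgr3 0.112, Cd63 0.1896, Apoe 0.0275, Slc11a1 0.144, Blvrb 0.1603, Ccl12 0.0363, Igf1 0.0981, Bst2 0.251 and Irf5 0.0244, then with the top 5% of cells by UMIs left out Pf4 0.127, Psmb8 0.00683, Fcgr3 0.05399, Cd63 0.0426, Blvrb 0.00517, Igf1 0.136 and Bst2 0.0673, then with no filter on low counts Stab1 −0.00146 and B2m −0.0126, then with DESeq2 Psmb8 0.00157, then with a C1q minimum of 10 Psmb8 0.0265 and Fcgr3 0.00337, then with cells under 10% mitochondrial counts Psmb8 0.00769 and Bst2 0.005502, then with carried-RNA cells left out Psmb8 0.0581, Fcgr3 0.0355, Bst2 0.0345 and Irf5 0.0329, then with noncycling cells only Psmb8 0.0292, then with equal cell numbers Igf1 0.101, Bst2 0.0203 and Irf5 0.0132. Over the repeats without 1 library the ranges that crossed 0 were Stab1 −0.0588 to 0.165, Psmb8 −0.101 to 0.142, Lrp1 −0.0228 to 0.156, Fcgr3 −0.141 to 0.126, Ccl7 −0.271 to 0.475, Ccl12 −0.613 to 0.137, Igf1 −0.189 to 0.0508, Bst2 −0.117 to 0.0223, Irf5 −0.0749 to 0.07399, Klf6 −0.0751 to 0.323, Egr1 −0.0199 to 0.738, Dusp1 −0.128 to 0.327, Ier2 −0.0193 to 0.327 and Dnajb1 −0.169 to 0.3502. In the Lyve1 split without thinning, for example, Folr2 moved to 4.97 and Tmem119 to −3.40, and without P1 replicate 2 Tmem119 differed by −6.17.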
